A study of Mus musculus with 6 samples.

Results

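The spermatogonial niche ligands and receptors are 10 genes: the ligands Gdnf, Kitl, Fgf2, Fgf9, Cxcl12 and Csf1, and the receptors Gfra1, Ret, Kit and Cxcr4. They were chosen by name, as growth factors and chemokines known to act on spermatogonia and the receptors that bind them. Every mRNA probe of the array whose RefSeq accession maps to one of these genes was taken. This gave 16 probes for 10 of the 19053 genes that the array's mRNA probes name. Ret and Kit, as well as Cxcl12 and Csf1, have several probes, and the other 6 genes have 1 each. The receptors of 3 ligands are not among the 10 genes, so Csf1r was set beside Csf1, Fgfr1 beside Fgf2 and Fgfr2 beside Fgf9.

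RNA was measured from whole testes of male C57/BL6 mice at 6 days of age (neonatal) and 8 weeks of age (adult). The question was how coding and long non-coding RNA change over postnatal development. Each age had 3 biological replicates, each hybridised to its own 1-colour array, 6 arrays in all. Each replicate came from a separate group of mice. No mouse was treated or carried an altered allele. The number of arrays limits the precision of every value.

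Spermatogonia, the mitotic germ cells at the base of the seminiferous tubule, depend on signals from the somatic cells around them. GDNF, made mainly by Sertoli cells, binds GFRA1 and signals through the tyrosine kinase RET to sustain spermatogonial stem cells. KIT ligand, also from Sertoli cells, acts on the receptor KIT of differentiating spermatogonia. In the testis at 6 days of age the germ cells are chiefly spermatogonia, whereas the adult tubule is filled mostly with spermatocytes and spermatids.

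All levels below are log2 values of a probe's background-subtracted signal relative to its array's 75th percentile, with a floor at -7.22. The scanner marks each spot as well above background or not, and marks some spots as outliers. Where a probe is given array by array its outlier spots are printed and named, but they were left out of the tests. Changes are adult minus neonatal on the log2 scale, with a standard error (SE) and an adjusted p, both from limma, in which the replicate number entered as a block. The p was adjusted by the Benjamini-Hochberg method over every lncRNA and mRNA probe tested. Outlier marks were uneven: they covered 30.7% of the neonatal and 25.4% of the adult spots of replicate 3, and 12 of the 13 outlier spots among the 96 spots of these genes were on replicate 3.

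Of the 10 genes, 9 could be tested, and most of them were lower in the adult testis. At an adjusted p of at most 0.05, 7 genes fell (Gdnf, Ret, Kitl, Kit, Cxcl12, Cxcr4 and Csf1), 0 rose, and 2 (Fgf2 and Fgf9) did not pass, although with normexp background correction Ret lost its call and Fgf2 rose. Over all mRNA probes tested, the same rule called 45.8% lower and 29.7% higher. With a fold change of at least 5 required as well, 2 genes fell (Gdnf and Kitl) and 0 rose, where the array as a whole had 13.7% of mRNA probes lower and 12.6% higher. The 2 became 3 with quantile normalization (Kit added), with the authors' log2 values or no common floor (Ret added), and when Cxcl12 was represented by its probe of highest mean linear signal, and 1 (Kitl) with normexp. Without neonatal replicate 2 only 4 genes could be tested, of which limma called 2 lower and none at 5-fold, and without neonatal replicate 1 it called 3 of 5 lower and 1 at 5-fold. Without neonatal replicate 3 it called 6 of 8 lower and 1 at 5-fold. The count of 0 higher by limma was also 0 at an unadjusted p of at most 0.05, and the methods' t-test gave 0 before and 0 after adjustment. That test called 5 of the 9 genes lower at its unadjusted p and 3 after adjustment. Levels here are relative to each array, so they do not count cells. In RNA of the whole testis, fewer cells of a type, a smaller share of them among other cells and less RNA per cell cannot be told apart.

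The filter on dim probes bears on this count. Gdnf and Ret entered the test only through the neonatal arrays, and so had to be lower in the adult. Fgf2 entered through 1 adult array, and Gfra1 did not enter at all. The remaining 6 genes were well above background on all 6 arrays, and 5 of them fell. The median change of the 9 genes was -1.59. That is the value of Ret itself, so it rests on a gene whose direction was fixed by the filter. Over all 15121 mRNA probes tested the median was -0.40.

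That median of -0.40 moves with the processing of the arrays. It was -0.64 with quantile normalization and -0.65 with a shift to the median. The authors' log2 values gave -0.84, with another floor, no outlier spot left out and 18506 probes tested, and normexp background correction, on median signals, gave 0.02. The share of 5-fold mRNA calls that were lower moved likewise, from 52.1% to 59.7%, 60.2%, 63.0% and 40.9% in that order. Relative to the median of all mRNA probes, Gdnf was at -4.17, or -1.34 with normexp, with no adult spot well above background. Cxcl12 was at -2.57, -0.91 and -0.85 by its 3 probes, and Kitl at -1.95. Csf1 was then at -1.35 and -1.44, Kit at -1.36 and -1.33, Ret at -1.19 by NM_001080780 but 0.30 by NM_009050, and Cxcr4 at -1.03. With normexp, NM_001080780 was at -0.19 and the other Ret probe at 0.53, so neither probe changed side. Fgf9 was at -0.83 and Fgf2 at 0.59, and neither passed the test.

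**Figure D1:**
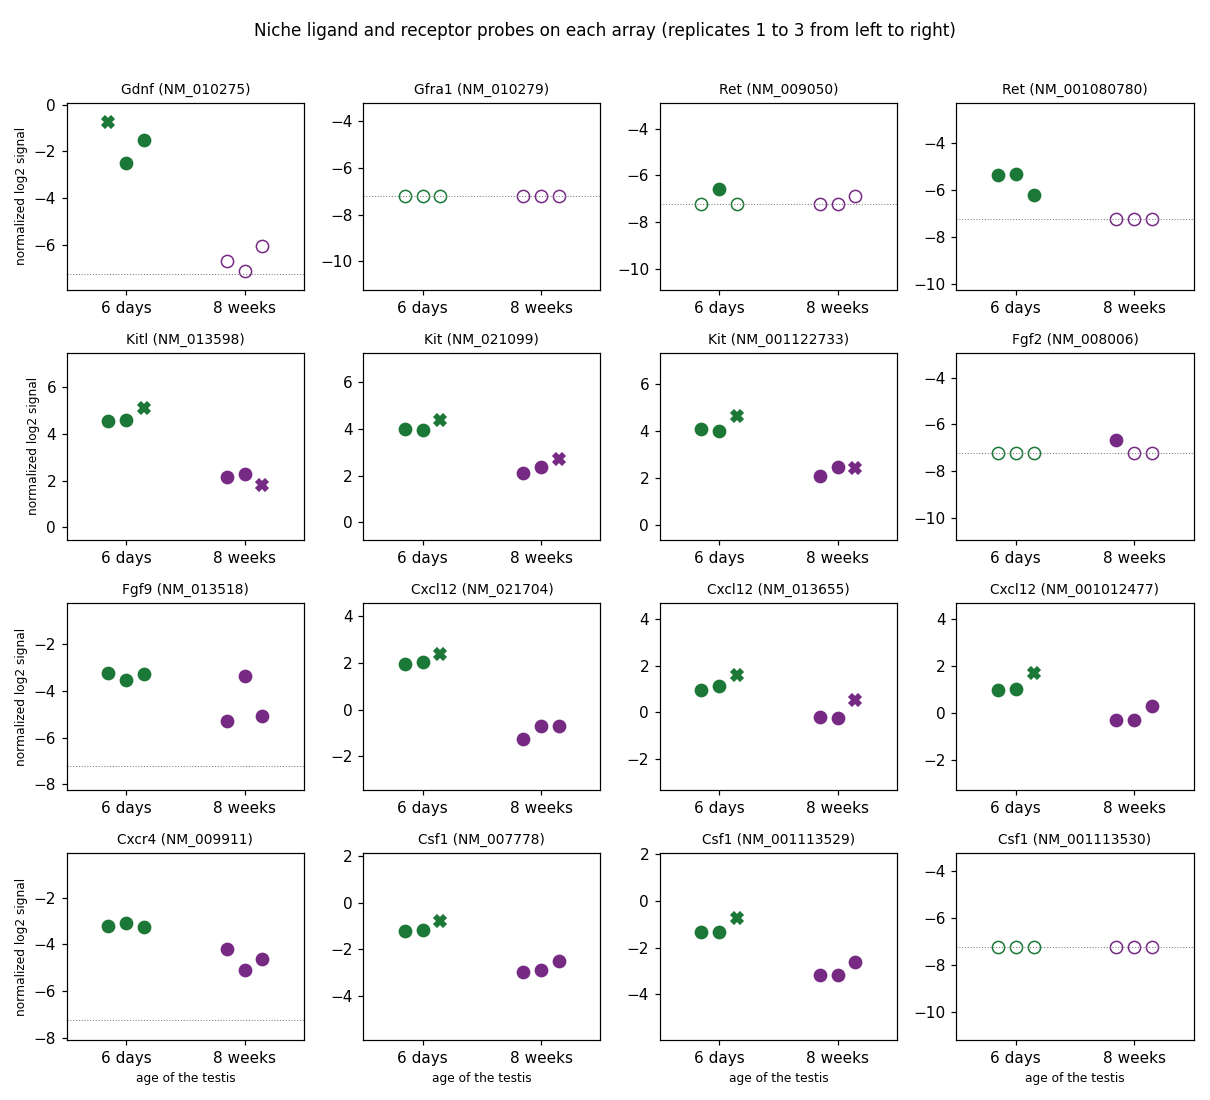
Log2 level of each probe of the 10 genes on every array, with the 3 neonatal replicates in green and the 3 adult replicates in purple, ordered 1 to 3 from left to right. Open symbols are not well above background, crosses are outlier spots, and the dotted line is the floor at -7.22; the adult arrays of Gdnf and of both Ret probes hold open symbols, and Gfra1 is at the floor throughout.

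The GDNF signal begins with its ligand, and Gdnf was measured above background in the neonatal testis alone. Its probe (NM_010275) read -0.74, -2.50 and -1.52 in neonatal replicates 1 to 3, the first of them an outlier spot, and -6.70, -7.10 and -6.05 in the adult. The neonatal arrays were all well above background and the adult arrays were not, and the nearest values of the groups lay 3.55 apart. The fitted change was -4.57 (SE 0.14, adjusted p = 0.000367), from 2 complete pairs. Since no adult spot was well above background, the adult level is only bounded. A bound sets the neonatal mean against, on each adult array, the higher of the probe's own signal and the lowest signal well above background. That lowest signal was taken over all probes of the array, so it is not this probe's own detection limit. By this rule Gdnf was at least 21.5-fold lower in the adult. With normexp the change of Gdnf was -1.32 (adjusted p = 0.00144), still lower but below 5-fold. Each fold given below as "at least" holds for this rule and this background subtraction only. Where a normexp change is printed beside such a fold, it was smaller.

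Gfra1, the co-receptor that binds GDNF, could not be followed. Its single probe (NM_010279) was at the floor of -7.22 on each of the 6 arrays and well above background on none. It therefore gives no level at either age, although spermatogonia are known to carry the receptor, and no fold can be stated for it.

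Ret, the signalling receptor of the complex, has 2 probes and they differed. NM_001080780 read -5.37, -5.31 and -6.21 in the neonatal arrays and -7.22 on all adult arrays. All neonatal values lay above all adult values, by 1.02 at the nearest. Ret fell by this probe (log2 change -1.59, SE 0.22, adjusted p = 0.00404), which by the same rule amounts to at least 2.31-fold lower in the adult. The change was -2.96 with no common floor and -2.60 with the authors' log2 values. The call was lost with normexp (-0.17, adjusted p = 0.457) and without replicate 1 (-1.46, adjusted p = 0.0632). The other probe, NM_009050, read -7.22, -6.57 and -7.22 in the neonatal arrays and -7.22, -7.22 and -6.88 in the adult, and was well above background on neonatal replicate 2 alone. Its groups overlapped and it did not pass (-0.10, SE 0.23, adjusted p = 0.696), whereas normexp gave it the opposite sign (0.55, adjusted p = 0.0135). Without replicate 2 its change was 0.17, and without neonatal replicate 2 it was 0.11.

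Ligand and receptors of the GDNF pair thus stand side by side, by that rule, as a fall of at least 21.5-fold for Gdnf and at least 2.31-fold for 1 Ret probe. Gfra1 had no measurable level. The difference between these changes was not tested, since each receptor probe was below background on the adult arrays.

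Kitl, the ligand of KIT, was measured well at both ages. Its probe (NM_013598) read 4.54, 4.61 and 5.12 in the neonatal arrays and 2.17, 2.29 and 1.80 in the adult, with both replicate 3 spots marked as outliers. The neonatal values were all higher, with a gap of 2.25 to the nearest adult value. Kitl fell by 2.35 on the log2 scale (SE 0.14, adjusted p = 0.00129), a 5.08-fold difference from 2 pairs. With the outlier spots kept the change was -2.67.

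Kit, the receptor tyrosine kinase of differentiating spermatogonia, moved the same way by both of its probes. NM_001122733 read 4.08, 4.0 and 4.63 in the neonatal arrays and 2.07, 2.49 and 2.42 in the adult. NM_021099 read 3.97, 3.94 and 4.38, then 2.11, 2.35 and 2.72. The replicate 3 spots of both probes were outliers, and neither probe's groups overlapped. The changes were -1.76 (SE 0.20, adjusted p = 0.00517) and -1.73 (SE 0.16, adjusted p = 0.00329), or 3.38-fold and 3.31-fold. By the methods' t-test neither passed (unadjusted p = 0.0883 and 0.0507), and with no filter on dim probes NM_001122733 lost its limma call (adjusted p = 0.0668). The Kit locus is also known to give a shorter transcript in spermatids, and where the probes lie on these transcripts was not analysed here.

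Whether ligand and receptor changed alike can be asked within an array, as the log2 value of the ligand minus that of the receptor. For Kitl minus Kit this difference was 0.47, 0.60 and 0.49 in the neonatal arrays and 0.09, -0.20 and -0.62 in the adult. All neonatal differences were higher than all adult ones, so the ligand's signal was lower relative to its receptor's at 8 weeks. The change in the difference was -0.76 (two-sided exact permutation p = 0.10, adjusted p = 0.20 over the 4 pairs compared in this way, with outlier spots kept). With 3 arrays against 3 the smallest p this test can give is 0.10, so it could not have passed. That test does not use the replicate numbers. Within them the changes were -0.38, -0.80 and -1.11, and an exact test over their signs gave p = 0.25, the smallest it can give with 3 pairs. By the other Kit probe the change was -0.97 (exact p = 0.10). With normexp the change of -0.76 became -1.20.

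Cxcl12, a chemokine that attracts cells bearing CXCR4, fell by each of its 3 probes but not to the same extent. NM_021704 read 1.94, 2.05 and 2.38 in the neonatal arrays and -1.26, -0.70 and -0.71 in the adult. NM_013655, which stands for the gene in the counts, read 0.94, 1.12 and 1.61, then -0.18, -0.26 and 0.52. NM_001012477 read 1.01, 1.05 and 1.71, then -0.28, -0.29 and 0.31. The groups did not overlap by any of these probes, and neonatal replicate 3 was an outlier spot for each, as was adult replicate 3 for NM_013655.

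The change was -2.97 by NM_021704 (SE 0.19, adjusted p = 0.00143), which is 7.85-fold and past the 5-fold rule. It was -1.25 by NM_013655 (SE 0.16, adjusted p = 0.00677) and -1.31 by NM_001012477 (SE 0.14, adjusted p = 0.0045), both short of 5-fold. By the methods' t-test NM_013655 did not pass (unadjusted p = 0.0653). Without adult replicate 1, NM_001012477 was at -1.02 (adjusted p = 0.0507). Counting a gene by any of its probes, 3 of the 10 genes passed the 5-fold rule as lower. The accessions are transcripts of 1 gene, so the unequal changes were also compared within each array, a comparison chosen after the values were seen. NM_021704 minus NM_013655 was 0.99, 0.93 and 0.77 in the neonatal arrays and -1.08, -0.45 and -1.22 in the adult, a change of -1.81 (exact permutation p = 0.10). Against NM_001012477 the change was -1.67 (exact permutation p = 0.10). In both comparisons the neonatal and adult differences did not overlap.

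Cxcr4, the receptor of CXCL12, passed the background mark on each array. Its probe (NM_009911) read -3.22, -3.10 and -3.27 in the neonatal arrays and -4.20, -5.09 and -4.61 in the adult. The groups were 0.93 apart at the nearest, and the adult replicates spread more widely than the neonatal ones. Cxcr4 fell (log2 change -1.43, SE 0.23, adjusted p = 0.00576). Without replicate 3 the adjusted p was 0.0611 at a change of -1.48, and with normexp the change was -0.67 (adjusted p = 0.0133).

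Beside its receptor, Cxcl12 gave different answers by different probes. NM_013655 minus Cxcr4 was 4.17, 4.22 and 4.89 in the neonatal arrays and 4.02, 4.83 and 5.13 in the adult. These groups overlapped, and the change of 0.24 did not pass (exact permutation p = 0.70, adjusted p = 0.70). NM_001012477 gave a change of 0.09 (exact permutation p = 1.00). NM_021704 gave -1.58 with no overlap (exact permutation p = 0.10). The direction for NM_013655 turned with normexp, to -0.59.

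Csf1, a cytokine best known for sustaining macrophages, fell by both probes that could be tested. NM_007778 read -1.21, -1.15 and -0.78 in the neonatal arrays and -2.98, -2.88 and -2.51 in the adult. NM_001113529 read -1.33, -1.35 and -0.73, then -3.19, -3.18 and -2.61. Neonatal replicate 3 was an outlier spot for both, and the groups did not overlap. The changes were -1.75 (SE 0.14, adjusted p = 0.00237) and -1.84 (SE 0.14, adjusted p = 0.0021), or 3.36-fold and 3.58-fold. A further probe, NM_001113530, was at the floor on all arrays and could not be tested.

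Csf1r, the receptor of CSF1 and a marker of macrophages, had a smaller change. Its probe (NM_001037859) read 1.14, 1.16 and 1.21 in the neonatal arrays, the last an outlier spot, and 0.50, 0.66 and 1.06 in the adult. The groups came within 0.07 of each other. The change of -0.57 passed narrowly (SE 0.14, adjusted p = 0.0379) and did not pass in 10 of 20 other settings. Among them were the outlier spot kept (-0.43, adjusted p = 0.0531), no common floor (adjusted p = 0.0548), no filter on dim probes (adjusted p = 0.0593) and the methods' t-test (unadjusted p = 0.079). The call also ended without the replicate block (-0.41, adjusted p = 0.146), without neonatal replicate 3 (-0.41, adjusted p = 0.136), without adult replicate 1 (-0.29, adjusted p = 0.345) or without adult replicate 2 (-0.37, adjusted p = 0.329). Relative to the median of all mRNA probes it was at -0.17, which became 0.04 with quantile normalization, 0.14 with the authors' log2 values, -0.18 with a shift to the median and -0.60 with normexp.

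Csf1 minus Csf1r was -2.34, -2.31 and -2.0 in the neonatal arrays and -3.47, -3.54 and -3.58 in the adult. All adult differences were lower, with no overlap. The change of -1.31 had an exact permutation p of 0.10, the smallest possible (adjusted p = 0.20 over the 4 pairs), and the other Csf1 probe gave -1.42. Within replicate numbers the changes were -1.13, -1.22 and -1.58, all lower, with a paired exact p of 0.25, again the smallest possible. Neither exact test could have passed with this number of arrays.

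The fibroblast growth factors did not pass the test. Fgf2, a growth factor long used to culture spermatogonia, read -7.22 in all neonatal arrays and -6.66, -7.22 and -7.22 in the adult (NM_008006). It was well above background on adult replicate 1 alone, and the groups overlapped at the floor. Its change of 0.19 did not pass (SE 0.16, adjusted p = 0.345), and with normexp it was 0.70 (adjusted p = 0.00346).

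Fgf9, which acts in the early development of the testis, read -3.22, -3.52 and -3.29 in the neonatal arrays and -5.27, -3.36 and -5.08 in the adult (NM_013518). Adult replicates 1 and 3 lay below all neonatal arrays, and adult replicate 2 lay among them. The change of -1.23 did not pass (SE 0.50, adjusted p = 0.0869), and with normexp it was -0.51. It was -1.83 without adult replicate 2 (adjusted p = 0.00175) and -1.92 without replicate 2 of both ages (adjusted p = 0.0142), so a single array decides this call.

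Both receptors set beside these ligands fell. Fgfr1 (NM_001079908) read -2.22, -2.06 and -2.06 in the neonatal arrays and -3.87, -4.29 and -3.87 in the adult, a change of -1.89 (SE 0.16, adjusted p = 0.000927) or -0.95 with normexp, and its other probes gave -2.02 and -1.98. Fgfr2 (NM_010207) read 0.84, 0.72 and 0.25, then -1.29, -0.84 and -1.46, with both replicate 3 spots outliers, a change of -1.84 from 2 pairs (SE 0.21, adjusted p = 0.00556). Fgfr2 and Fgfr1 by NM_010206 lost their calls with no filter on dim probes (adjusted p = 0.0742 and 0.0624) and by the methods' t-test (unadjusted p = 0.0971 and 0.0834), and NM_001079909 by the t-test alone (unadjusted p = 0.0563). NM_001079908 kept its call in each of these. Neither receptor's groups overlapped. Fgf9 minus Fgfr2 was -4.06, -4.24 and -3.54 in the neonatal arrays and -3.98, -2.52 and -3.62 in the adult. These groups overlapped, and the change of 0.57 did not pass (exact permutation p = 0.40, adjusted p = 0.53). It was 1.16 with normexp and 0.15 without adult replicate 2. By the other Fgfr2 probe (NM_201601) it was 0.75 (exact permutation p = 0.20). Fgf2 and Fgfr1 were not compared within arrays, as Fgf2 was below background on most of them.

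**Figure D2:**
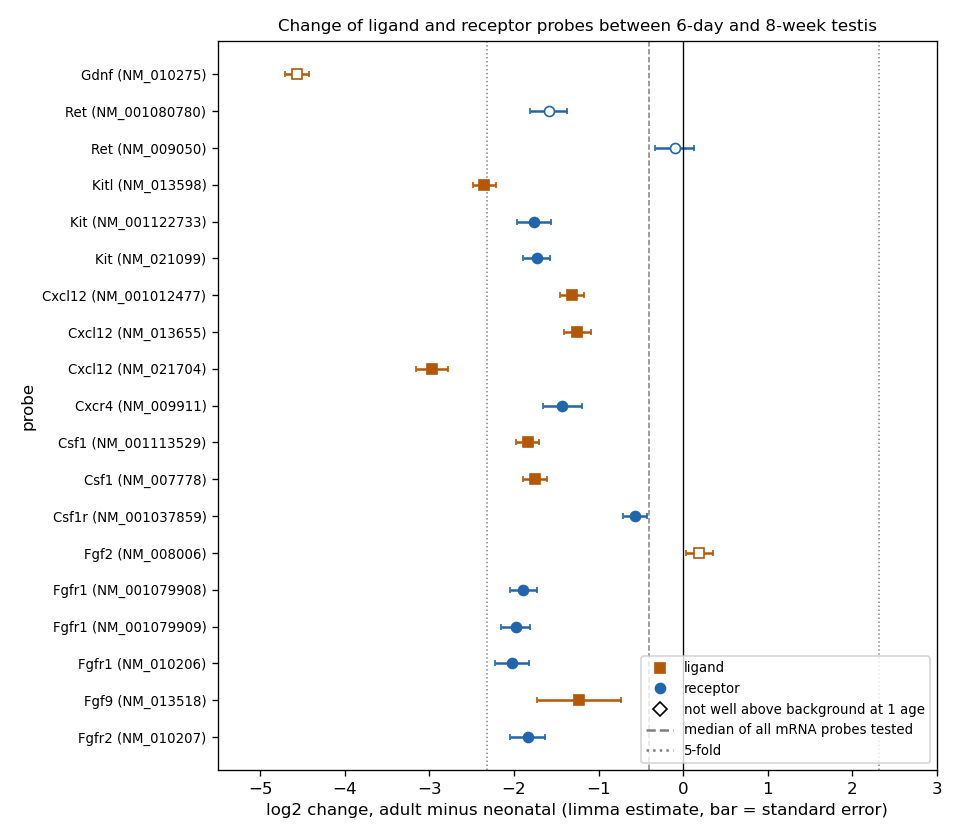
Change (adult minus neonatal, log2) of each tested probe of a ligand (square) and of its receptor (circle), with the SE as a bar. Open symbols had 1 age with no array well above background. The dashed line is the median of all mRNA probes at -0.40 and the dotted lines mark a 5-fold change. Kitl lies further left than both Kit probes, and Csf1 further left than Csf1r.

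Each age was split over 2 slides in the same way, with replicates 1 and 2 on slide 1 and replicate 3 on slide 2. The falls were present on both, although on slide 2 those of Kitl, Kit, Cxcl12 and Csf1 rest on outlier spots. Those of Gdnf and Ret had their direction fixed by the filter, and their sizes rest on adult spots not well above background. Within slide 1 (2 arrays an age) and slide 2 (1 array an age), outlier spots kept, the change was -5.28 and -4.54 for Gdnf, -1.88 and -1.02 for Ret by NM_001080780, -2.35 and -3.32 for Kitl, and -1.76 and -2.21 for Kit by NM_001122733. Cxcl12 changed by -2.97 and -3.08 (NM_021704) or by -1.25 and -1.09 (NM_013655), Cxcr4 by -1.48 and -1.34, and Csf1 by -1.75 and -1.73 (NM_007778). With the slide as a block in limma, the adjusted p was 0.000101 for Gdnf, 0.00128 for Ret and 0.00418 for Cxcr4. It was 0.000189 for Kitl, 0.00168 for Kit, 0.00141 for Cxcl12 by NM_013655 and 0.000376 for Csf1. That fit left outlier spots out, so its changes for Kitl, Kit, Cxcl12 and Csf1 came from slide 1 alone. Fgf9 was at -0.94 and -1.79 within the slides and did not pass with the block (adjusted p = 0.0944). Csf1r was at -0.57 and -0.15.

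Around these genes, lists of each pathway were counted by the same fit, to be read beside the 45.8% of all mRNA probes that were lower and the 29.7% that were higher. A called gene that was well above background at 1 age only had its direction fixed by the filter, and the number of these is given where a list held any. Of the GDNF family (ligands, co-receptors and RET), 8 of 10 genes on the array were tested, 4 fell and 2 rose, 2 of these calls at 1 age only, with a median of -0.72 (-0.04 with normexp), so its share of lower genes was near that of all mRNA probes. Artn, a related ligand that binds GFRA3, rose by 4.39 (SE 0.14, adjusted p = 0.000418), while Gfra3 itself fell (-2.62, SE 0.14, adjusted p = 0.00031). Among the genes known to respond to GDNF in spermatogonia, 6 of 8 tested fell and 1 rose, 2 of these calls at 1 age only, with a median of -3.05 (-2.85 with bounded genes at their bound, -1.01 with normexp). The transcription factors Egr2 and Mycn were at -4.37 (SE 0.14, adjusted p = 0.000395) and -4.10 (SE 0.14, adjusted p = 0.000441). Nanos2, an RNA-binding protein that keeps spermatogonia undifferentiated, was at least 7.78-fold lower (adjusted p = 0.000309) and, above background in the neonatal testis only, had its direction fixed by the filter; with normexp its change was -1.09 (NM_194064). Id4, an inhibitor of basic helix-loop-helix factors that marks stem spermatogonia, rose (2.75, SE 0.18, adjusted p = 0.00152).

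Of the KIT signalling list, 12 of 15 genes tested fell and 2 rose, 2 of these calls at 1 age only (Ptpn11 among them), with a median of -1.78 (-1.55 with normexp), beside -0.40 over all mRNA probes. Ptpn11, the phosphatase SHP2, was at least 15.7-fold lower by that bound (adjusted p = 0.000486), although with normexp its change was only -2.02. The kinase Src was at -2.68 (adjusted p = 0.00113). Sos1, an exchange factor for RAS, was at -2.53 (SE 0.36, adjusted p = 0.0094). The call was lost by the methods' t-test at the same change (unadjusted p = 0.145). It was also lost without the replicate block (-2.08, adjusted p = 0.0865) and with normexp (-0.27, adjusted p = 0.323). Sh2b3, an adaptor that restrains signalling by KIT, rose (2.76, SE 0.16, adjusted p = 0.00117).

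The FGF lists were mixed. Of the FGF ligands, 13 of 18 were tested, 4 fell, 3 rose (3 of these calls at 1 age only, Fgf3 among them) and 6 did not pass, and their median of -0.13 turned to 0.42 with normexp. Fgf21, a circulating metabolic factor, rose by 3.80 (SE 0.13, adjusted p = 0.000157). Fgf3 was at least 4.75-fold lower (adjusted p = 0.000327), but with normexp its change was only -0.27 and the call was lost (adjusted p = 0.0537). Of the FGF receptors and co-receptors, 3 of 6 tested fell and 1 rose, with a median of -0.38 (-0.21 with normexp), again near the share of lower calls over all mRNA probes. Of the feedback genes of FGF and RAS-ERK signalling, 2 of 7 tested fell and 2 rose, and the median of -0.37 turned to 0.46 with normexp. Etv4, a transcription factor induced by this signalling, fell by 2.42 on the log2 scale (SE 0.10, adjusted p = 0.000206). With outlier spots kept, 12 feedback genes could be tested, of which 6 fell and 2 rose.

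The shorter lists add the remaining partners of the chemokine and cytokine. In the CXCL12 list, Cxcl12 and Cxcr4 fell and 2 genes did not pass, with a median of -0.78 (-0.29 with normexp). Ackr3, a receptor that removes CXCL12, was at -0.30 (SE 0.15, adjusted p = 0.133), or 0.09 with normexp. It passed as lower with quantile normalization (-0.66, adjusted p = 0.0108), a shift to the median (-0.56, adjusted p = 0.0188) and the authors' log2 values (-0.57, adjusted p = 0.0258). Dpp4, a peptidase that cleaves CXCL12, was at 0.68 (SE 0.93, adjusted p = 0.529). In the CSF1 list, Csf1 and Csf1r fell, with a median of -1.16, and Il34, the other ligand of CSF1R, was not well above background. With outlier spots kept, 1 of these 2 genes fell.

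Other factors known to act in the niche mostly fell. Of 14 on the array 9 were tested, 8 fell and 1 did not pass, with a median of -2.70 (-1.77 with normexp), and with outlier spots kept 13 of 14 fell. Inhba, a subunit of activin A, had a change of -5.95 (SE 0.25, adjusted p = 0.000655) or -3.59 with normexp, and did not pass the methods' t-test after adjustment (adjusted p = 0.0724). The growth factors Nrg1 and Igf1 were at -3.75 (SE 0.16, adjusted p = 0.000204) and -3.07 (SE 0.14, adjusted p = 0.000821). Inhba and Nrg1 were well above background on only 1 adult array, so the sizes of their changes rest on dim spots, and with normexp Nrg1 was at -1.57. Lif, a cytokine, was at -2.75 (SE 0.10, adjusted p = 0.000168) or -1.39 with normexp.

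Markers of the cells that send and receive these signals moved as well. Sums below add the linear signal of a list's probes, 1 per gene, in units of the array's 75th percentile, for neonatal and then adult replicates 1 to 3. The sums include outlier spots and untested genes. Counts of these lists, too, are to be read beside the 45.8% of all mRNA probes that were lower and the 29.7% that were higher. Sertoli cell markers, from the cells known to make GDNF, KIT ligand and CXCL12, summed to 152.6, 123.2 and 173.7, then 26.4, 29.1 and 23.1, with 23 of 54 spots outliers. The tested genes alone summed to 39.9, 46.9 and 45.4, then 11.7, 10.3 and 11.1. All 4 tested fell, with a median of -2.10, and with outlier spots kept 9 of 9 fell. Fshr, the receptor of follicle-stimulating hormone, was at -3.05 (SE 0.23, adjusted p = 0.00213, but unadjusted p = 0.0672 by the methods' t-test) and the transcription factor Gata4 at -2.34 (SE 0.16, adjusted p = 0.00056). The brightest of the probes were those of Aard and Inha in the neonatal arrays and of Inha in the adult, and none was below background at either age.

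Peritubular myoid cell markers summed to 21.9, 22.1 and 27.1, then 5.47, 4.56 and 6.73, and 3 of 5 tested fell (median -1.91). Actg2 was at 1.77 and did not pass (SE 0.53, adjusted p = 0.0567), but passed as higher with outlier spots kept (2.01, adjusted p = 0.0102). Myh11 was the brightest at both ages, and Cnn1 was not well above background at either. Endothelial markers summed to 9.02, 10.2 and 16.2, then 2.59, 2.25 and 3.69, with Cdh5 the brightest. All 6 fell (median -1.84), including Pecam1 at -3.27 (SE 0.39, adjusted p = 0.00618) and Cdh5 at -2.53 (SE 0.21, adjusted p = 0.00271), both adhesion molecules of vessels and both lost by the methods' t-test (unadjusted p = 0.124 and 0.0717). Markers of Leydig cells, a source of CSF1, summed to 26.8, 28.6 and 25.5, then 81.4, 67.6 and 63.0, with Hsd3b1 the brightest in the neonatal arrays and Insl3 in the adult. Insl3 had 5 outlier spots and was not tested. The tested genes alone summed to 21.1, 22.4 and 23.1, then 15.8, 16.6 and 18.6, so the higher adult sum rests on untested genes. By the test 2 of 4 rose and 1 fell (median 0.49), and with outlier spots kept 4 of 7 rose.

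Markers of undifferentiated spermatogonia, the cells known to bear GFRA1 and RET, summed to 68.1, 78.7 and 59.1, then 15.8, 15.6 and 11.7, with Uchl1 the brightest. Of 9 tested, 6 fell and 1 (Id4) rose, 2 of these calls at 1 age only, with a median of -2.28 (-1.09 with normexp). The zinc finger factor Sall4 was at -4.43 (SE 0.36, adjusted p = 0.00242, but unadjusted p = 0.082 by the methods' t-test) and Neurog3, a factor of early spermatogonia, at -4.03 (SE 0.23, adjusted p = 0.00037), the latter on 1 adult array well above background and at -1.68 with normexp. Gfra1 was not well above background at either age, and Nanos2 and Pax7 were not in the adult. Markers of differentiating spermatogonia, a list that includes Kit, summed to 47.6, 48.0 and 58.5, then 9.71, 11 and 10.7, with Kit among the brightest at both ages and Stra8 beside it in the neonatal arrays. All 5 fell (median -2.61), with Sohlh1 at -3.26 (SE 0.20, adjusted p = 0.0014), Dnmt3b at -3.13 (SE 0.27, adjusted p = 0.00291) and Stra8 at -2.61 (SE 0.14, adjusted p = 0.00107). By the methods' t-test Sohlh1 (unadjusted p = 0.0502) and Dnmt3b (unadjusted p = 0.0833) did not pass.

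Spermatocyte and spermatid markers summed to 17.2, 14.2 and 11.5 in the neonatal arrays, where Sycp1 was the brightest, and to 1189, 1425 and 1635 in the adult, where Prm2 was. Of 10 tested, 9 rose and 1 fell, with a median of 7.79. The genes of sperm chromatin Prm2, Tnp2 and Prm1 were at 14.32, 14.18 and 12.47 (limma adjusted p = 7.62e-05, 0.000126 and 8.8e-05), and Acrv1, a protein of the acrosome, at 10.69 (adjusted p = 7.62e-05).

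Macrophages bear CSF1R, and mast cells bear KIT. Macrophage markers, a list that includes Csf1r, summed to 12.3, 12.3 and 14.8, then 10.3, 9.92 and 12.3, with C1qc among the brightest at both ages and Fcgr1 not well above background at either. Of 5 tested, 2 fell, 1 rose and 2 did not pass, a share of lower genes near that of all mRNA probes. The median was -0.35, beside -0.40 over all mRNA probes. Mast cell markers summed to 1.27, 0.878 and 2.56, then 0.913, 0.813 and 0.949, with Tpsb2 the brightest. The enzymes Cma1 (-4.28, SE 0.24, adjusted p = 0.000359; -2.17 with normexp) and Cpa3 (-2.39, SE 0.65, adjusted p = 0.0298) fell, the latter a call lost without the replicate block (adjusted p = 0.0663), with normexp (adjusted p = 0.0724) and by the methods' t-test (unadjusted p = 0.122). Tpsb2 was at 0.47, Mcpt4 at -0.07 and Ms4a2 at -0.36, none past the test, the last pair not well above background in the adult, although with normexp Tpsb2 (0.63, adjusted p = 0.0115) and Mcpt4 (0.61, adjusted p = 0.0077) passed as higher. The mast cell median of -0.36 turned to 0.38 with normexp. The part of all these cell types in the changes of the ligands and receptors was not tested.

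The array also carries long non-coding RNAs that the study's tables tie to 3 of the genes. Those tables were held here in part and were built from these same samples, so the values are a description. AK047175 overlaps Kit exons in the sense direction. It read -3.26, -3.16 and -4.59 in the neonatal arrays and -5.78, -5.97 and -6.61 in the adult, lower at 8 weeks as Kit itself was. Of the adult arrays, 2 had it well above background. Whether its probe also reads Kit mRNA was not tested. Of the intergenic RNAs tied to Cxcl12, AK012924 read -3.36, -3.25 and -3.36, then -7.22 on all adult arrays, at least 11.4-fold lower. AK019646 read -7.22 on all neonatal arrays, then -3.15, -3.05 and -5.31, at least 9.81-fold higher. AK006540 also read -7.22 on all neonatal arrays, then -0.30, 2.29 and 2.11, and had too many outlier spots (adult replicates 1 and 3) for the test. AK016118, intergenic and tied to Csf1, read -7.22 on all neonatal arrays, then -2.92, -2.59 and -3.74, the first of these an outlier spot, at least 15.6-fold higher. All 4 of the intergenic RNAs were well above background at 1 age only, so only that direction could come out.

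The promoters held for the 10 genes, those that did not fall included, were read for short motifs. RefSeq promoters of build GRCm38.p6, the 250 bases before a transcription start, were held for 9 of the 10 genes, 11 promoters in all, and there was no entry for Ret. Motifs were sought on both strands. Of the 11, 2 are overlapping Kit promoters, so 10 are distinct. GGGCGG, the letters of a GC box, was in 7 of the 11 (6 of the 10) and in 32.7% of all 32851 promoters. The 7 include that of Fgf2, which did not pass the test, and neither Gdnf promoter holds GGGCGG. The promoters with GGGCGG had a GC content from 56.4% (Csf1) to 70.8% (Kit), and the part of GC content in this count was not tested. TATAAA, the letters of a TATA box, was in 3 of the 11 (3 of the 10) and in 12.4% of all. CAGCTG was in 1 (13% of all), CACGTG in 0 (6.02%) and TGACGTCA in 0 (1.55%). CAGCTG and CACGTG, as well as TGACGTCA, each read the same on both strands. A match is a description of these letters, not a binding site. The promoters of 4 genes that fell are shown, with every match to these motifs in capitals: Gdnf (chr15:7809798-7810047, plus strand, GC content 50.8%), which has another start with neither motif, Kitl (chr10:100015571-100015820, plus strand, 69.2%), Kit (chr5:75574737-75574986, plus strand, 70.8%) and Cxcl12 (chr6:117168285-117168534, plus strand, 64.4%). The median GC content over all promoters was 52.4%.
Gdnf: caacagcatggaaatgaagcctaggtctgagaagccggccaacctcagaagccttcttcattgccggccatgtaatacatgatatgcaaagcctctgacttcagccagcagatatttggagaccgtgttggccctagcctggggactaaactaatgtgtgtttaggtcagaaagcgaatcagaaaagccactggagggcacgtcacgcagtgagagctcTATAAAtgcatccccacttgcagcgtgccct
Kitl: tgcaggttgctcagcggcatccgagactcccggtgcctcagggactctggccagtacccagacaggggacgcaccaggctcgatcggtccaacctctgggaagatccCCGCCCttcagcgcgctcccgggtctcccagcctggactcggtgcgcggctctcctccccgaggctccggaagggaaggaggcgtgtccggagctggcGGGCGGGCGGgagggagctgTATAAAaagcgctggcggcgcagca
Kit: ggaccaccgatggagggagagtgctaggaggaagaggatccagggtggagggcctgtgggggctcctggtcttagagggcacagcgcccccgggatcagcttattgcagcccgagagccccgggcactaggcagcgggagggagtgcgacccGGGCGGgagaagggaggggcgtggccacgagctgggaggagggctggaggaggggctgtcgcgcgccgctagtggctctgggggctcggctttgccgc
Cxcl12: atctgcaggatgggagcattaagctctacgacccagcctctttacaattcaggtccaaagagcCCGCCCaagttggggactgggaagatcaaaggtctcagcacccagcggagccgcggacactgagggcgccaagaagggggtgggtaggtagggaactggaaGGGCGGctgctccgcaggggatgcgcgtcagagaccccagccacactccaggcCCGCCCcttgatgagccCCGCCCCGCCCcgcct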

How the data were processed

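RNA of 3 neonatal and 3 adult whole-testis replicates was read on 1-colour (Cy3) Arraystar mouse arrays. The intensity values deposited for each spot came from Agilent Feature Extraction 10.5.1.1, which subtracts background and detrends within an array, and no array was scaled to another. Besides these intensities, the deposited scanner output has other columns that flag spots as outliers or as well above background. The authors also deposited log2 values of 18506 mRNA probes, each of which is, to within 0.001, the log2 of the signal (set to 5 where lower) less a number fixed for its array. These were an alternative. No column of sample values was left unused.

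Spots of a probe were averaged, scaled to the array's 75th percentile over non-control probes, floored at a common -7.22 and put on the log2 scale. Outlier spots were left out of the tests. mRNA probes were named through RefSeq accessions (GRCm38.p6), which matched 21905 of 22464 (97.5%). A probe entered the test if 1 or more arrays had it well above background and at least 2 pairs were complete. limma 3.58.1 was run under R 4.3.3 (prior degrees of freedom 2.07), after the script was tested on simulated data. A gene with several probes was represented in counts by the tested probe with the highest mean log2 signal over the 6 arrays. By mean linear signal Cxcl12 would be represented by NM_021704 (2.47) in place of NM_013655 (1.72). Differences within arrays were tested by exact permutation, every arrangement listed in the script itself. Tables and plots used Python 3.11.15, numpy 2.4.6, pandas 2.3.3 and matplotlib 3.10.9.

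A block for the replicate number follows the study's own use of a paired test. As a check of the pairing, deviations from the mean of each age correlated at 0.401, 0.339 and 0.681 between arrays of the same number, at 0.432 and 0.374 between other arrays of the same slide, and between -0.586 and -0.481 across slides. On slide 1 arrays of the same number were no more alike than other arrays, so the number showed nothing beyond the slide.

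Named genes were the 10 genes with every probe, the receptors paired with their ligands, and from each list the genes past the 5-fold rule with the largest changes in each direction, at most 4 a list and up to 2 for each direction where both had that many, plus all tested genes of lists of 5 or fewer. Ccl9, Dmrtb1, Rhox5 and Cd68 were not on the array. Tbxt is another symbol of T, which was on the array and was tested under that name. The lncRNAs stand outside that rule. The genes and lists were chosen with earlier results of these data known. Alternatives covered the floor, the scaling, normexp with an offset of 50 on median signals, the filter, outlier spots, the blocks, the prior, the t-test and leaving out each replicate. Lists with outlier spots kept, probes of Cxcl12 against each other, slide 1 alone, the combination of kept outlier spots with no block, the probe of highest mean linear signal, sums over tested markers alone, the exact test within replicate numbers, lncRNAs with no block, and the alternatives for genes beyond the 10 were chosen after seeing the data.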

Additional observations from a re-analysis of the deposited data

How the results depend on the processing

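The tested probes of the 10 genes gave 290 values under other settings, of which 270 kept direction and call, 14 lost the call, 3 gained one and 3 changed sign. The genes beyond the 10 gave 435, of which 383 kept both. Without the replicate block, limma called 1915 mRNA probes higher and 2038 lower at 5-fold, 4037 and 6357 at the adjusted p, and left the call of all 14 tested probes of the 10 genes as it was. Csf1r, Sos1 and Cpa3 lost their calls without the block, which changed no other call of a named probe. With normexp, 1036 mRNA probes were lower at 5-fold, 1 of the 10 genes was lower at 5-fold and 1 (Fgf2) higher at the adjusted p. The sign then turned for Ret NM_009050 (0.55), Ackr3 (0.09), Mcpt4 (0.61) and Ms4a2 (0.38), and ligand minus receptor was -1.20 for Kitl, -0.59 for Cxcl12 and -0.99 for Csf1. With the authors' log2 values 3873 were lower at 5-fold, Tpsb2 was at -0.16 and Mcpt4 at 0.02. The cause was not tested for any of these. The methods' t-test after adjustment called 1265 lower at 5-fold and 2660 higher and 3309 lower at the adjusted p, with 3 of the 10 genes lower. Among its lost calls were both Kit probes (adjusted p 0.0865 and 0.128). A fold of 2 in place of 5 gave 3530 higher, 5527 lower and 7 of the 10 genes lower. With outlier spots kept, more genes were tested, and the lower calls were 6 feedback genes, 13 niche factors, 9 Sertoli markers and 1 gene of the CSF1 list, with 1 myoid and 4 Leydig markers higher. Leaving out replicates gave 847 to 1921 higher and 920 to 2151 lower at 5-fold, 1865 to 4236 higher and 2516 to 6498 lower at the adjusted p, 0 to 2 of the 10 genes lower at 5-fold and 2 to 7 at the adjusted p. The fewest calls came without replicates 1 or 2, when 4 or 5 of the 10 genes could be tested, because replicate 3 holds most outlier spots. Ret NM_009050 then ran from -0.32 to 0.17, with 0.11 without neonatal replicate 2. Ligand minus receptor ran from -0.93 to -0.57 for Kitl, 0.00 to 0.55 for Cxcl12, -1.37 to -1.20 for Csf1 and 0.15 to 0.88 for Fgf9. Signal over background limits Gdnf, Gfra1, Ret and Fgf2, which were not measured at 1 or both ages.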
